A study of Mus musculus with 79 samples.

Results

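The 9 genes described here are the myogenic regulators and growth factors Myf5, Myod1, Myog, Myf6, Pax7, Mstn and Igf1, with the developmental myosin heavy chains Myh3 and Myh8. They were chosen by gene symbol from the quadriceps expression table, out of 22335 genes that carry a symbol on 35556 probesets. Each of the 9 genes had 1 probeset, so the highest-mean probeset was the only one available. Quadriceps muscle came from male mice of the BXD family, which are inbred strains derived from C57BL/6J and DBA/2J, and from both parental strains. Mice were kept on a chow diet (CD, Harlan 2018) or on a high fat diet (HFD, Harlan 06414) that started at 8 weeks of age. All were fasted overnight and sacrificed at 29 weeks, so fasting is shared by both groups. Each of the 79 arrays, 42 on CD and 37 on HFD, held RNA pooled from approximately 5 animals of a single strain on a single diet. Pooling leaves the variation among mice within a strain unmeasured, and every test below compares pools, not single mice. The 42 strains include 37 with an array on each diet and 5 with a CD array alone.

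The myogenic regulatory factors Myf5, Myod1, Myog and Myf6 are basic helix-loop-helix proteins that bind the E-box together with E proteins and drive muscle genes. Pax7 is the transcription factor that marks satellite cells, the stem cells of adult muscle, in which Myf5 is also active, whereas Myod1 and Myog rise as these cells activate and fuse. Myf6, also called MRF4, is the member of the family that stays high in adult fibres. Mstn encodes myostatin, a secreted inhibitor of muscle growth that signals through activin type II receptors and Smad2 and Smad3. Igf1 encodes insulin-like growth factor 1, a secreted growth signal that growth hormone induces through Stat5b and that muscle fibres, macrophages and fibroblasts can all make. Myh3 and Myh8 encode the embryonic and perinatal myosin heavy chains, which adult limb muscle largely replaces with adult isoforms and makes again during regeneration.

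Expression is given as a score, scaled so that the probesets of an array average 8.0 units with an SD of 2.0. Scores behave as logs of a base that is not given in the sources used here, so differences are given in units of score. Scores of different genes also depend on their probes, and no gene is ranked above another by them. The label of the tissue held, since the array mean of 6 skeletal muscle genes (Acta1, Ckm, Myh4, Mb, Ttn and Des) lay between 14.53 and 14.86 on every array and the lowest of them stood at the 99.6th percentile of probesets. The array mean of the slow fibre list of 8 genes ranged from 8.65 to 11.23 and that of the adipocyte list of 6 genes from 9.25 to 11.44. In whole muscle, a change in the number of a kind of cell and a change in RNA per cell cannot be told apart. RNA extraction and hybridization ran in 2 batches per the labels, the first with 18 CD arrays beside 17 on HFD and the second with 24 beside 20. Over all 35556 probesets limma called 0 for the batch term and 0 for the diet by batch term, and 0 had an unadjusted p below 0.05 for either, with smallest p of 0.266 and 0.134. Chance alone would leave many p-values below 0.05, so the batch means of the deposited scores lie closer together than chance would place them, and these tests say nothing about batch effects before deposit. Strain BXD63 stood apart. Over 1154 olfactory receptor probesets, r across probesets between its diet differences and the mean of the other 36 strains was -0.537, against 0.421 to 0.649 for each other strain, which runs against the diet labels of its 2 arrays. Whether these labels are exchanged was not tested, and the strain is counted by its labels in every count of strains below. By them it was higher in HFD for Myf5, Myog, Mstn and Igf1 and lower for the other 5 genes. Results are also given without BXD63 where that changed a call. Probesets are not independent replicates, and these r are descriptions.

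The promoter windows of the genes that the diet and strain results turn on are shown first, because the myogenic factors act through the E-box and several of the genes here are among their targets. Each window runs from 250 bases before to 50 bases after a transcription start in RefSeq on GRCm38.p6, in the 5′ to 3′ direction of the gene, with matches to the E-box CANNTG in capitals. The pattern CANNTG reads the same on both strands, and matches did not overlap. Windows were given for 7 of the 9 genes, and Myod1 and Myf6 were not among them. The first 4 windows below belong to the genes that were higher in HFD, on chr10:107486085-107486384 (minus strand), chr4:139832919-139833218 (minus strand), chr10:87860861-87861160 (plus strand) and chr11:67078050-67078349 (plus strand). The last belongs to Mstn on chr1:53061390-53061689 (plus strand), whose level differed between strains.
Myf5: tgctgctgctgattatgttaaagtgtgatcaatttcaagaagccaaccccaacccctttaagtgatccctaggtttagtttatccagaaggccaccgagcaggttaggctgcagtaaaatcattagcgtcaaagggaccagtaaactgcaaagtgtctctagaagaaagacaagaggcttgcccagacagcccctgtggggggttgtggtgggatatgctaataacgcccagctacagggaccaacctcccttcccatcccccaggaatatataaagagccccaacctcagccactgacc
Pax7: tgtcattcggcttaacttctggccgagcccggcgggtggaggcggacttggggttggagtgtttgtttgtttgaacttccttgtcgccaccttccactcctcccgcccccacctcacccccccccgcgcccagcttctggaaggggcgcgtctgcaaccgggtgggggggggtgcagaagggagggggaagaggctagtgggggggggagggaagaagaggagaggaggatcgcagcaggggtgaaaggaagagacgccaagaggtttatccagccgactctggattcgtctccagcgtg
Igf1: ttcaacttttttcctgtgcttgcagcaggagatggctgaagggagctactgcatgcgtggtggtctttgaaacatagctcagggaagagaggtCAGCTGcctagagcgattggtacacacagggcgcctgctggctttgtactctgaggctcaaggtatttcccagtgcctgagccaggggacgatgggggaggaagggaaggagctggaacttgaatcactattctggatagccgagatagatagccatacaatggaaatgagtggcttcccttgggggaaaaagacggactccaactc
Myh3: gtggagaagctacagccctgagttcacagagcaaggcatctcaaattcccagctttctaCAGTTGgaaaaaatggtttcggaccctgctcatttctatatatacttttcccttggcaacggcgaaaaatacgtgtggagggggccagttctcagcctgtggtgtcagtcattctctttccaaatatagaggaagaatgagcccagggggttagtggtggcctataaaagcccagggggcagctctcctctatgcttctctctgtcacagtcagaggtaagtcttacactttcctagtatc
Mstn: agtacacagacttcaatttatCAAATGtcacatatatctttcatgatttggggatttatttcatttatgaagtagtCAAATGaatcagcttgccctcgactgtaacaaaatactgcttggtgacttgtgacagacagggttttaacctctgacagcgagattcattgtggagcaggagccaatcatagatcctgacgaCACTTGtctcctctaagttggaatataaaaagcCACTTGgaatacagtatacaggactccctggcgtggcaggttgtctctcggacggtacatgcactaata
The Mstn window held 4 matches, Myog and Myh8 held 2 each, Igf1 and Myh3 held 1 each, and Myf5 and Pax7 held 0. Of all 32851 promoter windows of this length, 72.3% held at least 1 match and 6.49% held at least 4. The Igf1 match, at -157 to -152, has the letters CAGCTG, which 16.3% of windows hold. The TATA letters TATAAA, read on the strand of the gene, stood at -29 to -24 in both Myh3 and Mstn and at 21 to 26 in Myf5, and 8.32% of all windows hold them. The MEF2 motif was searched on both strands as YTAWWWWTAR. Here Y is C or T, W is A or T, and R is A or G. This strict pattern was matched in the Myh8 window alone among the 7, and in 3.19% of all windows. The Myog window holds ctatatttat, which departs from the pattern in its last base and was not counted. These matches describe letters only and were not tested for binding.

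The first question was whether the diet changed these genes. With limma, 4 of the 9 genes were called at a Benjamini-Hochberg adjusted p below 0.05, and all 4 were higher in HFD. Across the whole array 38.1% of probesets were called, with 18.9% higher and 19.3% lower, so the share of the 9 genes called is near that of all probesets. The even split over the array depends on the scaling, since with each array centred on its median 8199 probesets were higher and 5758 lower, while the same 4 of the 9 genes were called higher. The median difference of the 9 genes was 0.0707 units, against -0.0007 over all probesets. The genes that rose were Myf5 and Pax7, which mark satellite cells, the growth factor Igf1, and the embryonic myosin Myh3. Each difference was smaller than the SD over CD strains of its gene, at 0.97 of that SD for Myf5, 0.91 for Pax7, 0.81 for Myh3 and 0.63 for Igf1.

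Myf5, the first of the family to be switched on in development, had a lowest score of 7.367, a median of 7.692 and a highest score of 8.022 over the 42 CD arrays. Over the 37 HFD arrays it ran from 7.435 through a median of 7.855 to 8.215. The ranges overlapped almost entirely, yet 29 of 37 strains were higher in HFD, by up to 0.521 units in BXD96. The mean was 7.71 ± 0.131 (SD, n = 42) in CD against 7.84 ± 0.162 (SD, n = 37) in HFD. The fitted difference was 0.127 units (SE 0.0332, limma adjusted p 0.00145). It was the only one of the 9 that was also called in batch 2 alone (0.137 units, limma adjusted p 0.00693), and it was 0.114 units in batch 1, where limma called 0 of the 9 genes and the unadjusted p was below 0.05 for Pax7 and Myh3 alone.

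Pax7 ran from 8.057 through a median of 8.339 to 8.58 in CD and from 8.042 through 8.449 to 8.709 in HFD. The lowest HFD array, of BXD69, lay below every CD array, while 28 of 37 strains were higher in HFD. The mean rose from 8.33 ± 0.117 (SD, n = 42) to 8.44 ± 0.144 (SD, n = 37). The fitted difference was 0.106 units (SE 0.0299, limma adjusted p 0.00305). The diet differences of single strains spanned -0.32 in BXD69 to 0.564 in BXD103. Beside Pax7, the summed marker list of satellite cells (18 genes) ranged from 8.74 to 8.94 in CD and from 8.81 to 9.02 in HFD as array means. In that list 5 genes were called higher and 2 lower, and 7 of 18 is near the 38.1% of all probesets called. The genes that rose most were the adhesion molecule Vcam1 (0.256 units, higher in 32 of 37 strains), the proteoglycan Sdc3 (0.1755 units, 30 strains) and the adhesion molecule Ncam1 (0.1725 units, 28 strains). The satellite cell list genes that fell were the receptor Notch3 (-0.116 units, higher in 8 strains) and M-cadherin, Cdh15 (-0.08025 units, higher in 10 strains). Vcam1 is also made by endothelium and Ncam1 by nerve. Of 6 endothelium markers 3 were called higher and 0 lower, with a median of 0.131 units. Of 6 nerve and Schwann cell markers 2 were called higher and 2 lower, with a median of 0.0201 units. Over all probesets 18.9% were called higher and 19.3% lower. The part of those cells was not tested.

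Igf1 had the widest diet differences upward among the 4. It ran from 8.71 through a median of 9.342 to 9.82 in CD and from 8.791 through 9.494 to 9.794 in HFD, so the highest array was on CD, from DBA/2J. The mean rose from 9.29 ± 0.254 (SD, n = 42) to 9.45 ± 0.266 (SD, n = 37), with 28 of 37 strains higher. The fitted difference was 0.159 units (SE 0.0581, limma adjusted p 0.0239). Single strains spanned from -0.776 units in BXD83, which fell from 9.567 to 8.791, up to 0.687 units in BXD89, which rose from 8.71 to 9.397. The call was lost when strains without an HFD array were left out (0.148 units, limma adjusted p 0.0503) and when the mean of the olfactory receptor probesets of each array was a covariate (0.158 units, limma adjusted p 0.0513).

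Markers of other cells were measured beside Igf1. The counts here stand against 18.9% of all probesets called higher in HFD and 19.3% called lower. Of 6 macrophage markers, 4 were called higher in HFD and 0 lower. The array mean of the macrophage list ranged from 8.39 to 9.20 in CD and from 8.51 to 9.56 in HFD. Cd68 rose by 0.386 units and Emr1, the gene of the F4/80 antigen, by 0.371 units. Of 6 adipocyte markers 5 were higher and 1, Cfd, was lower, while limma called 0 of the 6 fibroblast and matrix markers, with 1 at an unadjusted p below 0.05. The part of these cells in the Igf1 difference was not tested.

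Myh3 ran from 7.02 through a median of 7.315 to 7.556 in CD and from 7.088 through 7.408 to 7.785 in HFD. The lowest CD array was that of C57BL/6J. The mean was 7.31 ± 0.109 (SD, n = 42) in CD against 7.40 ± 0.143 (SD, n = 37) in HFD, and 26 of 37 strains were higher. The fitted difference was 0.0881 units (SE 0.0289, limma adjusted p 0.0113). It came to 0.0623 units (limma adjusted p 0.122) with the olfactory receptor covariate. This probeset is dim, since 90.1% of 1154 olfactory receptor probesets had a lower mean. The same share was 95.8% for Myf5 and 93.9% for Myog. Myh8, which lies in the same cluster of skeletal myosin genes, did not pass, with 8.80 ± 0.112 (SD, n = 42) in CD against 8.76 ± 0.126 (SD, n = 37) in HFD and a difference of -0.0385 units (95% interval -0.093 to 0.0159, limma adjusted p 0.273). The myosin heavy chain genes are close in sequence, and the probe sequences were not used here, so the share of other isoforms in these scores was not tested. The adult fast myosins had mean scores of 14.0 (Myh1), 13.5 (Myh2) and 14.8 (Myh4), while the fourth gene of that list, Myh13, had 7.396.

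**Figure D1:**
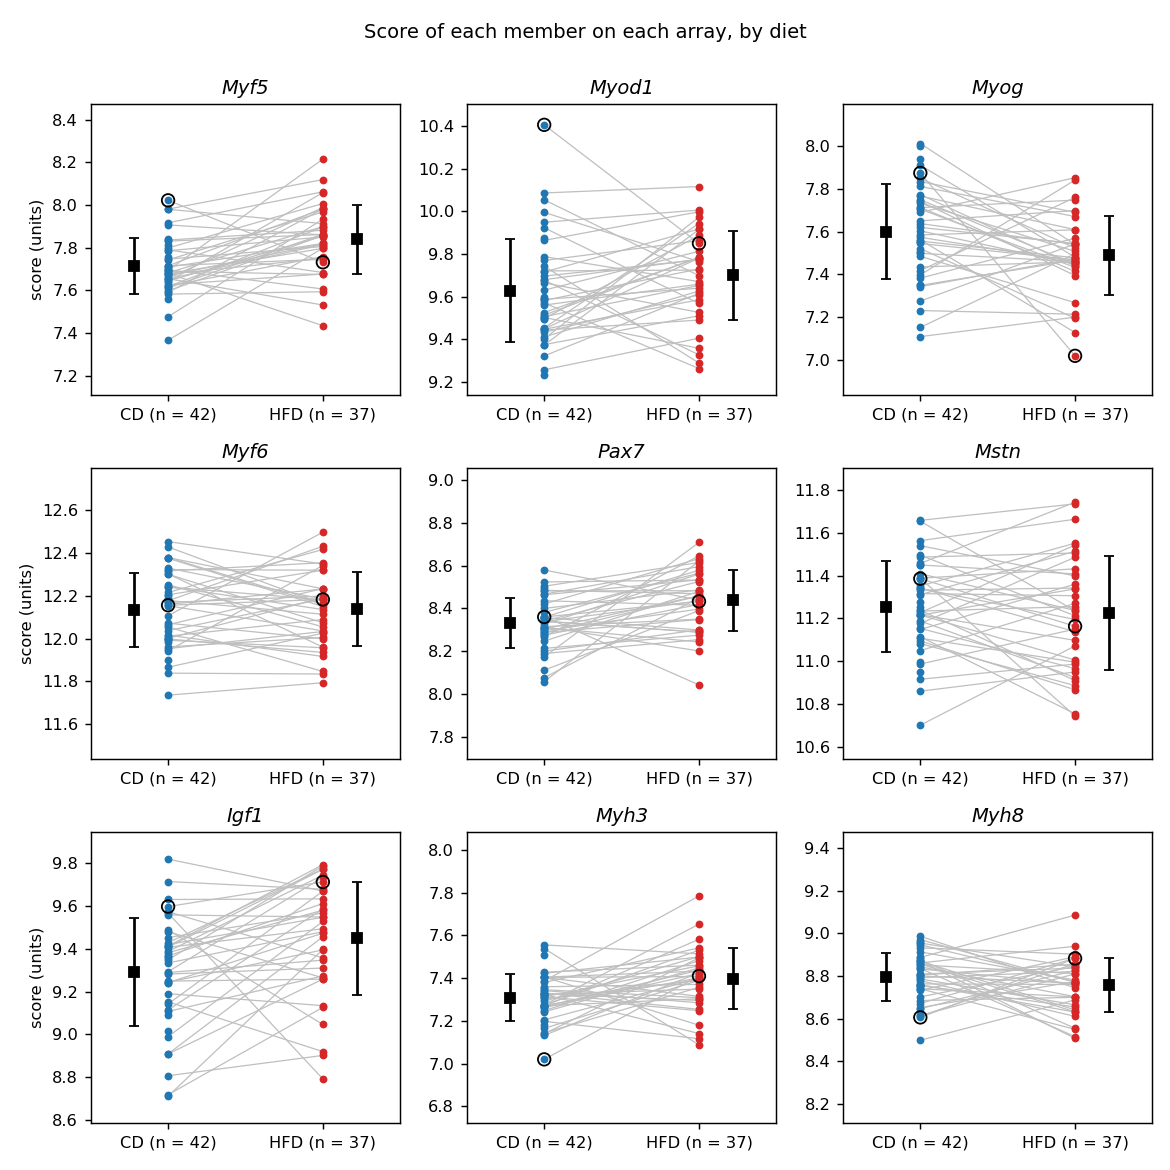
Score in units on each array for the 9 genes, 1 panel per gene with the same span on every vertical axis. Blue points are the 42 CD arrays and red points the 37 HFD arrays, grey lines join the arrays of a strain, black squares with bars are the mean and SD, and open circles mark C57BL/6J. The groups overlap in all 9 panels, and the C57BL/6J circle sits at the top of Myf5 and Myod1 and at the bottom of Myh3 in CD.

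The remaining myogenic factors and Mstn were not called. Myog, which drives terminal differentiation, was the closest to the threshold and pointed down. It ran from 7.108 through a median of 7.594 to 8.012 in CD and from 7.018 through 7.477 to 7.852 in HFD, and 24 of 37 strains were lower in HFD. The mean was 7.60 ± 0.222 (SD, n = 42) in CD against 7.49 ± 0.185 (SD, n = 37) in HFD, so that HFD minus CD was -0.110 units (SE 0.0463, 95% interval -0.2025 to -0.0182, limma adjusted p 0.0509). It was called lower without BXD63 (-0.122 units, limma adjusted p 0.0301), without the batch term (adjusted p 0.0499) and over 1 probeset per gene (adjusted p 0.0423). Without C57BL/6J, whose 2 arrays hold the largest fall of any strain, the difference was -0.0907 units (limma adjusted p 0.108).

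Myod1, the factor that marks activated satellite cells and fast fibres, scored 9.63 ± 0.242 (SD, n = 42) in CD against 9.70 ± 0.210 (SD, n = 37) in HFD. It was higher in 27 of 37 strains, but the difference of 0.0707 units had a 95% interval of -0.0306 to 0.172 (limma adjusted p 0.281). Myf6 scored 12.13 ± 0.173 (SD, n = 42) in CD against 12.14 ± 0.173 (SD, n = 37) in HFD, so that HFD minus CD was 0.00402 units with an interval of -0.0737 to 0.0818. It was higher in HFD in 17 strains and lower in 20. Mstn scored 11.26 ± 0.212 (SD, n = 42) in CD against 11.23 ± 0.267 (SD, n = 37) in HFD, so that HFD minus CD was -0.0301 units with an interval of -0.137 to 0.0768, and was higher in 18 strains and lower in 19.

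**Figure D2:**
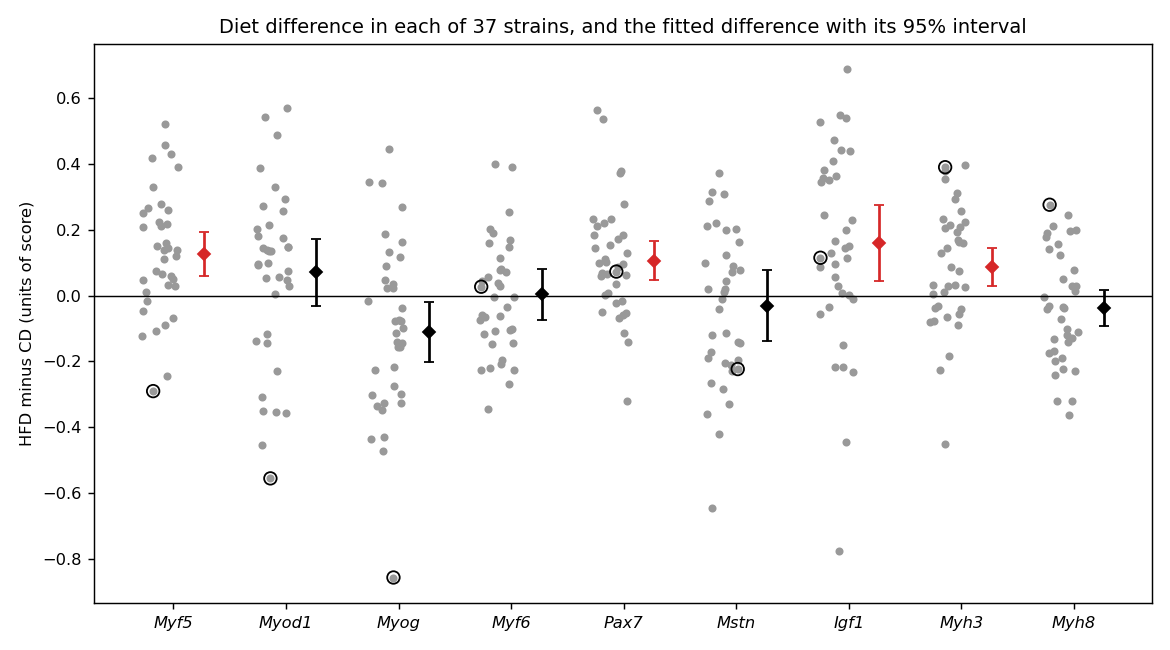
Difference HFD minus CD in units of score for each of the 37 strains (grey points) and the limma estimate with its 95% interval (diamonds, red where called), by gene. Open circles mark C57BL/6J. Every gene has strains on both sides of 0, and the intervals of Myf5, Pax7, Igf1, Myh3 and Myog lie off 0 before adjustment.

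Single strains differed widely in their response. Each of the 9 genes was higher in HFD in some strains and lower in others, and with 1 array per strain and diet the response of a single strain has no replicate. The 18 extreme responses, the lowest and highest of each gene, were held by 13 strains. C57BL/6J held 4 of them. It had the lowest of the 37 diet differences for Myf5 (-0.29 units), Myod1 (-0.555 units) and Myog (-0.856 units) and the highest for Myh8 (0.276 units), and the second highest for Myh3. Its CD array had the highest score of all CD arrays for Myf5 (8.022) and Myod1 (10.405), where the next highest Myod1 score was 10.086 in DBA/2J. Its HFD array had the lowest Myog score of all HFD arrays (7.018, next 7.127 in BXD68). Leaving C57BL/6J out kept the 4 genes called in HFD, with differences of 0.137 units for Myf5, 0.107 for Pax7, 0.159 for Igf1 and 0.0804 for Myh3. BXD70 held the lowest diet difference for Myf6 (-0.343 units) and for Mstn (-0.645 units), and BXD79 the highest for Myh3 (0.398 units) and the lowest for Myh8 (-0.362 units).

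The pathways around these genes were then described from lists of genes, which were not tested as sets. Their counts stand against 38.1% of all probesets called, or 44.3% with 1 probeset per gene. Among 25 partners and targets of the myogenic factors, 7 were called higher and 3 lower in HFD, with a median of 0.0002 units, so the 10 of 25 called are near the share of the whole array. The largest rises were in Id2, an inhibitor of E proteins (0.135 units), Chrnb1, a subunit of the muscle acetylcholine receptor (0.131 units), and Tcf12, an E protein (0.114 units). Among the falls were the cell cycle inhibitor Cdkn1c (-0.0704 units) and the E protein Tcf3 (-0.0698 units). E proteins thus appeared on each side, with Tcf12 higher in 32 of 37 strains and Tcf3 higher in 7.

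In the myostatin pathway of 25 genes 4 were called higher and 7 lower, with a median of 0.0153 units, while Mstn itself was not called. The 11 of 25 called are likewise near the share of the whole array. Among the lower genes were the myostatin receptor kinase Tgfbr1 (-0.166 units, higher in HFD in 4 of 37 strains), the myostatin binding proteins Wfikkn2 (-0.165 units) and Wfikkn1 (-0.113 units), the inhibin subunit Inha (-0.119 units) and the signal carrier Smad3 (-0.116 units). The highest rises were in the receptor kinase Acvr1c (0.246 units), which fat cells also make, in Fstl1 (0.1865 units) and in Smad2 (0.133 units). Smad2 and Smad3, which carry the same signal, were thus called in opposite directions.

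The IGF pathway of 24 genes had 6 called higher and 8 called lower, with a median of -0.0481 units. The rises were largest in Cish (0.386 units, higher in 29 of 37 strains) and Socs2 (0.331 units, 33 strains), both feedback inhibitors that growth hormone signalling induces, and in Irs1, an adaptor of the receptor (0.24 units, 30 strains). The receptor Igf1r fell by 0.122 units and Stat5b by 0.136 units. Of the binding proteins, Igfbp1 fell by 0.272 units, Igfbp2 by 0.176 units and Igfbp3 by 0.153 units, whereas Igfbp5 rose by 0.191 units. The protease Pappa2, which cleaves binding proteins, fell by 0.191 units. Igfbp1 is chiefly a liver gene. Its probeset and that of Pappa2 lie in brightness decile 4 and that of Igfbp2 in decile 5, where 28.5% and 26% of all probesets were called lower.

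Among 14 genes of developing and regenerating fibres 6 were called higher and 2 lower, with a median of 0.0896 units. They included the calcium-binding protein Casq2 (0.268 units), which slow fibres also make, the membrane repair protein Myof (0.201 units) and the intermediate filament Vim (0.161 units), which fibroblasts and endothelium also make. The imprinted gene Dlk1 (-0.142 units) and Myh7b (-0.0897 units) were lower. limma called 0 of the 4 adult fast myosin heavy chains, with 0 at an unadjusted p below 0.05. Of 8 slow fibre genes it called 1, Tpm3, which was higher, while the median of that list was -0.125 units. Of 8 muscle spindle genes 3 were called lower, namely Ntrk3, Etv4 and Calb1, and the other 5 were not called. These 3 probesets are dim, with Calb1 at a mean of 5.661 below the olfactory receptor median of 6.071. They lie in brightness deciles 5, 5 and 2, where 26% and 28.8% of probesets were called lower.

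**Figure D3:**
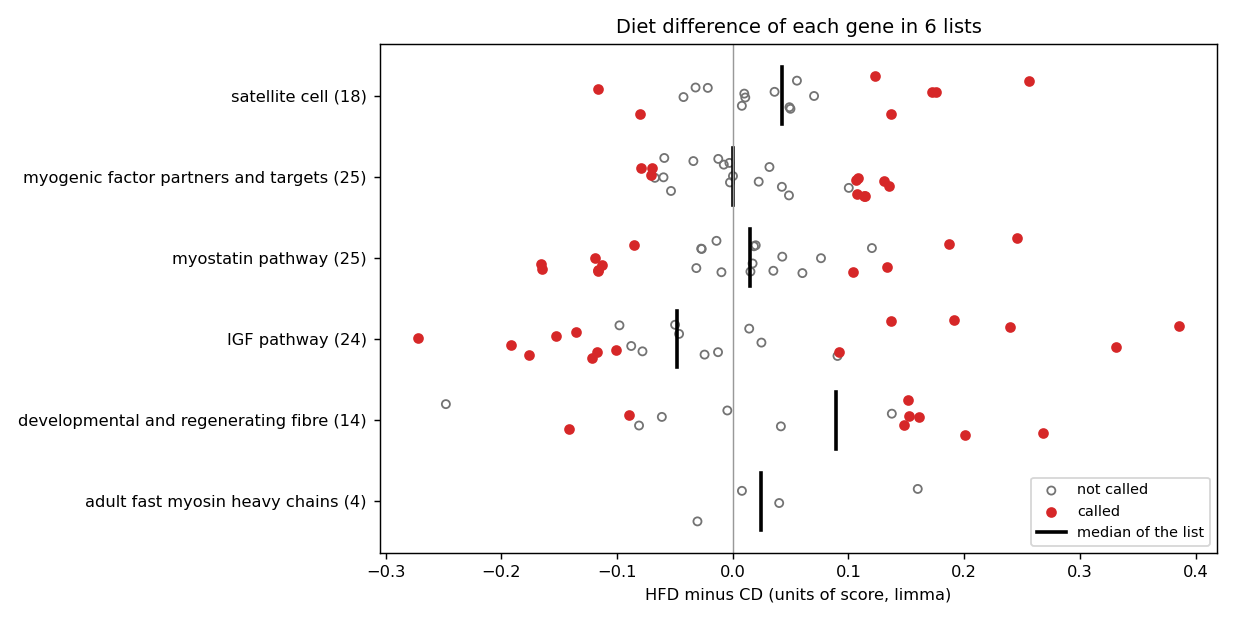
Difference HFD minus CD in units of score, from limma, for every gene of 6 lists (rows, with the number of genes). Filled red points were called, open points were not, and black bars are list medians. Called genes lie on each side of 0 in the first 5 lists, and the medians stay between -0.0481 and 0.0896 units.

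The second question was whether strains differ in these genes. With 1 array per strain and diet, the arrays of a strain on the 2 diets served as its replicates, after the diet and batch means were removed. A limma F-test called 2 of the 9 genes, Mstn (F 3.92, adjusted p 0.000798) and Myf6 (F 2.99, adjusted p 0.00848), against 13.6% of all probesets. The share called rose with brightness over the array, from 2.67% in the dimmest decile to 35.8% in the brightest, which holds both genes. Igf1 (F 2.20, adjusted p 0.0601) and Myod1 (F 1.90, adjusted p 0.12) came next and did not pass. Igf1 did pass with each array centred on its median (adjusted p 0.0322) and in the strains with both arrays in the same batch (adjusted p 0.00576), where Myod1 passed as well (adjusted p 0.0206). Myf5, Myog, Pax7, Myh3 and Myh8 had F between 0.882 and 1.46.

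Mstn ran from 10.7 in BXD97 through a median of 11.25 to 11.66 in BXD62 on CD. On HFD it ran from 10.74 in BXD70 through 11.24 to 11.74 in DBA/2J, with BXD62 next at 11.74. BXD62 was thus at or next to the top on each diet. The range over strains was 0.959 units on CD and 1.001 units on HFD, against a residual SD of 0.154 units between the arrays of a strain. Strain scores on CD and HFD correlated over 37 strains with r = 0.549 (permutation p 0.00049, adjusted p 0.0086) and rho = 0.561 (permutation p 0.00043, adjusted p 0.00865). Without the 2 strains farthest from the median on CD r was 0.515 (permutation adjusted p 0.0266). Within batches r was 0.641 over 12 strains in batch 1 and 0.448 over 17 strains in batch 2, and neither passed.

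Myf6 scores ran from 11.74 through a median of 12.16 to 12.45 on CD, and from 11.79 through 12.16 to 12.50 on HFD. The lowest strain on each diet was BXD68 and the second lowest BXD100. Over 37 strains r between diets was 0.494 (permutation p 0.00176, adjusted p 0.0226) and rho was 0.448 (permutation p 0.0057, adjusted p 0.0577). The relation rests in part on those lowest strains, since r was 0.346 without the 2 farthest (permutation adjusted p 0.237). Within batches r was 0.273 over 12 strains in batch 1 and 0.68 over 17 strains in batch 2. Myf5 and Myf6 are adjacent genes on the same chromosome, yet Myf5 had r of 0.175 between diets.

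Across the array 10.6% of probesets passed this test of correlation between diets, and Mstn and Myf6 were the 2 of 9 members that did. Igf1 had r = 0.362 (permutation adjusted p 0.15) and rho = 0.396, with r of 0.676 within batch 1, 0.39 within batch 2 and 0.009 over the 8 strains whose arrays lay in different batches. The r of the other 6 genes lay between -0.098 for Myh3 and 0.292 for Myod1. No member formed separate clusters of strains in 27 sets of values examined, so pooled correlations were used.

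**Figure D4:**
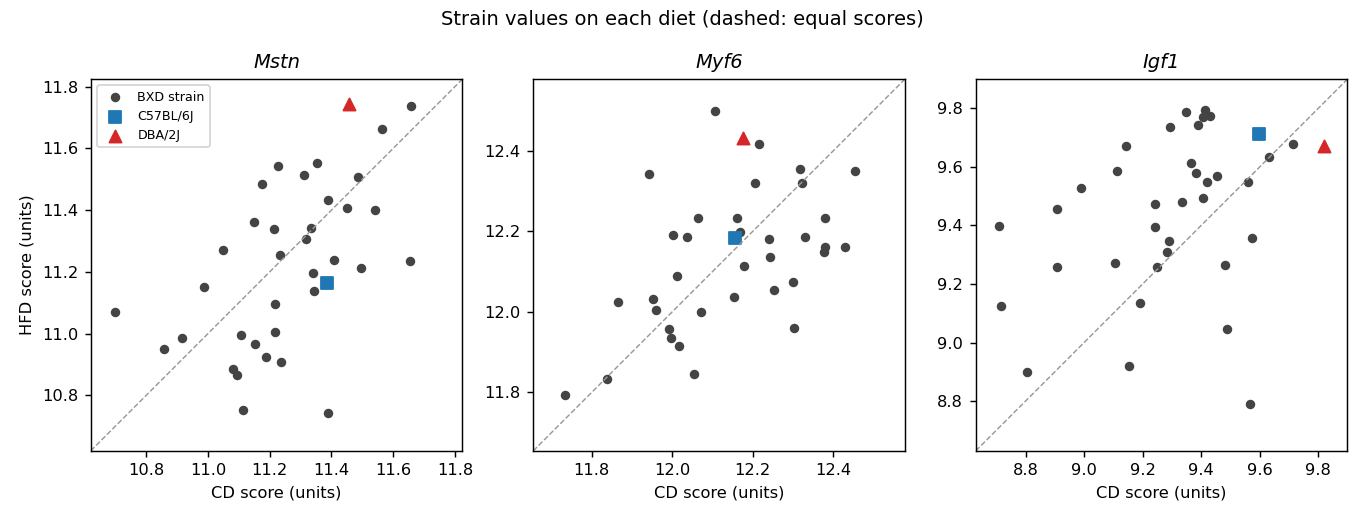
Score on HFD against score on CD in units for Mstn, Myf6 and Igf1, with 1 point per strain (37 strains) and a dashed line of equal scores. The parental strains are marked by a square (C57BL/6J) and a triangle (DBA/2J). Points follow the line most closely for Mstn (r = 0.549) and Myf6 (r = 0.494), and for Igf1 most lie above it.

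The parental strains were compared over both diets. limma called 0 of the 9 genes between C57BL/6J and DBA/2J, with 1 at an unadjusted p below 0.05, against 1.26% of all probesets called. That gene was Mstn, lower in C57BL/6J by 0.326 units (SE 0.154, limma adjusted p 0.557). On CD the 2 parents scored 11.386 and 11.457, and on HFD 11.163 and 11.744, in this order. BXD strains lay outside the parents in numbers that differed between the diets, with 35 of 40 below or above both on CD for Mstn and 38 of 40 for Myf6. On HFD these counts were 15 of 35 for Mstn, so that most strains lay between the parents, and 22 of 35 for Myf6. For Igf1, 38 of 40 BXD strains lay below both parents on CD.

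The SD over strains was compared between diets by exchanging diets within strains. The permutation test called 0 of the 9 genes and 0.0% of all probesets, with 0 of the 9 and 7.52% of all probesets at an unadjusted p below 0.05. The highest ratio was in Myh3, with an SD of 0.141 on HFD against 0.1075 on CD, a ratio of 1.31 (permutation p 0.176, adjusted p 0.765). For Igf1 the ratio was 1.005.

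The third question was whether the members vary together over strains. Among the 36 pairs of members, the permutation test over strains called 0 pairs on CD and 0 on HFD after adjustment over the correlations of the 9 members with all probesets, where 0.0% of such correlations were called on CD and 1.68% on HFD. The number of draws limits the CD value, since 57 correlations on CD had the smallest p the draws allow and 64 at that p were needed for them to be called, so the shares of the diets are not compared. The HFD share moved with the setting, to 0.14% with arrays centred on their medians, 0.323% without the 2 farthest strains, 0.528% by Spearman rho and 0.747% with quantile normalization. At an unadjusted p below 0.05 there were 4 pairs on CD and 3 on HFD, and the same share over all probesets was 8.98% and 14.3%. With p from the t distribution in place of permutations the members again gave 0 called pairs on each diet, while 30 correlations with other probesets were called on CD. The r of member pairs ran from -0.375 to 0.427 on CD, with a median of 0.002, and from -0.387 to 0.442 on HFD, with a median of -0.01. The 4 myogenic factors showed no common axis, with r between -0.16 and 0.28 on CD and between -0.19 and 0.25 on HFD.

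The pair that stood highest on each diet was Mstn and Myf6, the same 2 genes that differed between strains. Their r was 0.427 on CD over 42 strains (permutation p 0.00469, adjusted p 0.317) with rho of 0.396, and 0.442 on HFD over 37 strains (permutation p 0.0064, adjusted p 0.137) with rho of 0.441. Without the 2 farthest strains r was 0.401 and 0.443. Within batches it was 0.156 and 0.559 on CD and 0.37 and 0.492 on HFD, for batch 1 and batch 2. It was the only pair with an unadjusted p below 0.05 on both diets, and it did not pass adjustment on either. Other pairs at this level on CD were Myod1 with Igf1 (r = 0.396), Myod1 with Myh3 (r = -0.375) and Myf6 with Myh8 (r = -0.33). Without the 2 farthest strains the first was 0.275 and the second -0.237. On HFD they were Mstn with Myh8 (r = -0.387) and Pax7 with Myh8 (r = 0.364), the latter -0.118 within batch 1 and 0.626 within batch 2.

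**Figure D5:**
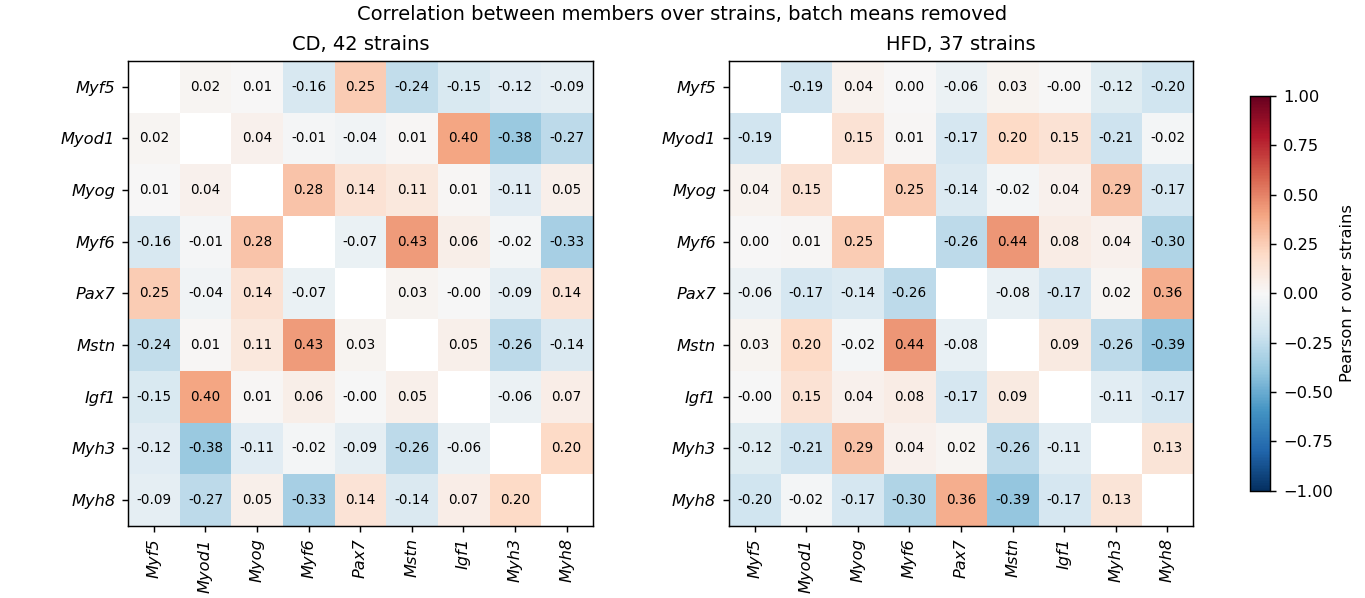
Pearson r between the 9 genes over strains, batch means removed, on CD (left, 42 strains) and HFD (right, 37 strains), on a scale from -1 (blue) to 1 (red). A black frame would mark a pair called after adjustment, and there is none. The Mstn with Myf6 cell is the highest on each side, at 0.427 and 0.442.

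The diet differences of single strains were also set against each other, a comparison added after the data were seen. Here 1 of 36 pairs was called, Pax7 with Myh8, against 2.32% of all correlations with the members, and 6 of 36 pairs had an unadjusted p below 0.05, against 14.5%. The r was 0.517 over 37 strains (permutation p 0.00091, adjusted p 0.0443) and rho 0.465 (permutation p 0.00403, adjusted p 0.119). Strains in which Pax7 rose more thus had higher differences in Myh8. The call was lost without BXD63 (r = 0.505, permutation adjusted p 0.0559) and without the 2 farthest strains (r = 0.445, permutation adjusted p 0.162). Within batches r was 0.373 over 12 strains and 0.647 over 17 strains. Quantile normalization and arrays centred on their medians were not tried for the correlations of differences, so a shift shared by a whole array was not tested. Mstn and Myf6 had r = 0.422 here (permutation adjusted p 0.148), with 0.516 in batch 1 and 0.484 in batch 2.

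Each member was also set against the mean of each of 15 gene lists on each diet, which gave 270 relations. After adjustment over them, 16 passed by r and 11 by rho. These relations were computed on the deposited scores alone. Quantile normalization and arrays centred on their medians were not tried for them, so their dependence on the scaling was not tested. Igf1 varied over strains with lists of other cells. With the macrophage list r was 0.62 on CD (permutation p 4e-05, adjusted p 0.0027) with rho of 0.556 (permutation adjusted p 0.0101), and 0.495 on HFD (permutation adjusted p 0.0386) with rho of 0.483 (permutation adjusted p 0.0567). Within batch 1 and batch 2 these r were 0.444 and 0.764 on CD and 0.695 and 0.217 on HFD, and without the 2 farthest strains 0.514 and 0.417. With the fibroblast and matrix list r was 0.538 on CD and 0.608 on HFD, both past the threshold, and without the 2 farthest strains 0.389 and 0.535. With the adipocyte list r on HFD was 0.616 (permutation p 6e-05, adjusted p 0.0027, rho 0.64).

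Mstn had negative r with several fibre lists. With the 4 adult fast myosin heavy chains r was -0.474 on CD (permutation p 0.00146, adjusted p 0.0328) with rho of -0.537, and -0.596 on HFD (permutation p 4e-05, adjusted p 0.0027) with rho of -0.608. Without the 2 farthest strains r was -0.62 and -0.611, and every within-batch r was negative, from -0.706 to -0.354. On CD Mstn also ran opposite to the developmental fibre list (r = -0.508, permutation adjusted p 0.017) and to the slow fibre list (r = -0.458, permutation adjusted p 0.0405). On HFD these r were -0.457 (permutation adjusted p 0.0627) and -0.21 (permutation adjusted p 0.596) and did not pass. With the skeletal muscle list r was -0.136 on CD (permutation adjusted p 0.748) and -0.448 on HFD (permutation adjusted p 0.0666), where rho of -0.509 passed (permutation adjusted p 0.0403). The fast list varied unequally between its genes. The SD over CD arrays was 0.385 units for Myh2, 0.170 for Myh1, 0.129 for Myh13 and 0.0524 for Myh4, so that Myh2 weighs most in the list mean. On HFD Pax7 (r = 0.62) and Myh8 (r = 0.653) each followed the skeletal muscle list (permutation adjusted p 0.0027 for each). For Pax7 this r was 0.161 within batch 1 and 0.771 within batch 2, and for Myh8 0.665 and 0.672. Myh3 followed the nerve and Schwann cell list on HFD (r = 0.571, permutation adjusted p 0.009, rho 0.672), with 0.631 and 0.559 within batches, and the adult fast myosins on CD (r = 0.483, permutation adjusted p 0.0328).

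Finally, the genes whose strain pattern was most like each member were named by the lower of the r on CD and the r on HFD, over 42 and 37 strains and 1 probeset per gene, as a description. Mstn was most like Tbc1d19 (0.628), 2310015B20Rik (0.607) and Phkb (0.604), the last a subunit of phosphorylase kinase. Myf6 was most like Zfp187 (0.487), Nfe2l2 (0.461), which encodes the antioxidant regulator Nrf2, and Mcts2 (0.445). Igf1 was most like Pcolce (0.623), Gpx8 (0.608) and Dpt (0.604), of which Pcolce and Dpt encode matrix proteins. Myod1 was most like Ppapdc3 (0.63), Gdf1 (0.58) and the IGF binding protein gene Igfbp5 (0.577). Myh3 was most like Lpl (0.582), Thbs1 (0.576) and Cd36 (0.555), where Lpl and Cd36 serve fatty acid uptake. Among the genes most like Pax7 were Wt1 (0.579) and Dmrtb1 (0.574), and Myog was most like Ctse (0.535), Nr4a2 (0.474) and Chrna9 (0.431). Myh8 was most like BC068157 (0.521), Gm355 (0.505) and Gm4894 (0.5). Myf5 was most like Olfr121 (0.392), Fbxw13 (0.376) and Lce1f (0.368), the lowest values of the 9 genes. No member was among the 3 leads of another.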

How the data were processed

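Quadriceps RNA was measured on Affymetrix Mouse Gene ST arrays, 1 array per strain and diet. The deposited values are scores per probeset that the authors scaled to a mean of 8.0 and an SD of 2.0 on each array. Affymetrix Expression Console is named in the submitters' processing notes. The summarization, background and batch correction methods, the log base and the genome build are not given in the sources used here. Groups, strains and batches came from the sample titles and characteristics, and all columns of per-sample values were used.

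The members and gene lists were chosen with earlier results of these data known. Diet was tested over all 79 arrays and 35556 probesets with limma 3.58.1 in R 4.3.3, with diet and batch as terms, and strain with the F-test of a fit that added strain. Correlations over strains, batch means removed, and ratios of SDs were tested in Python 3.11.15 by two-sided permutation tests with 100000 draws, of which the smallest p is 1e-05. All p-values were adjusted by Benjamini-Hochberg over all probesets, or over the correlations of all 9 members with all probesets, and called below 0.05. The relations with list means were adjusted over those relations. Clusters of strains were called at a BIC gain of 10 and an Ashman D of 2. The tests were checked on simulated data. Strain pairs the CD and HFD arrays, and the fit with strain as a block is an alternative. The alternatives were other batch and pairing terms, sample sets, tests, scalings and filters, 51 of them planned and 5 added after the data were seen.

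Named genes are the 9 members, the 3 genes most like each, and, per pathway list, up to 3 called genes that rose most and up to 3 that fell most. Wfikkn1, Smad3, Igf1r, Stat5b, Igfbp3, Igfbp5, Cd68, Emr1, Cfd, Tpm3, Ntrk3, Etv4 and Calb1 were named after their values were seen. A few genes that this rule names are not reported here. Of 167 list genes 166 were on the array. Depth does not apply to arrays, and the number of pools limits the precision.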

Additional observations from a re-analysis of the deposited data

How the results depend on the processing

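The number of members called between diets was 0 in batch 1 alone, 1 in batch 2 alone, 2 with the olfactory receptor covariate and 2 without probesets below the median mean, which removes Myf5, Myog and Myh3 from the test. With strain as a replicate block, the pairing the design gives, 4 members were called, and they were Myf5, Pax7, Igf1 and Myh3 as in the unblocked fit. The number with a strain effect was 4 in strains with both arrays in the same batch. The number whose strain values were correlated between diets was 1 by Spearman rho, 1 without the 2 farthest strains, and 0 in batch 1, in batch 2 and in arrays of different batches, which hold fewer strains. The Myf6 diet difference turned to -0.002912 units in batch 1, -0.006888 in strains with both diets and -0.002658 with the block. The r between diets turned to -0.081 (Myf5) and -0.116 (Myog) in batch 1, to -0.531 (Myod1) and -0.007 (Pax7) in different batches, to 0.058, 0.106 and 0.131 (Myh3) without the 2 farthest strains, in batch 1 and in batch 2, and to 0.024 and 0.033 (Myh8) with median centring and in batch 2. The r of Pax7 with Myh8 on HFD turned to -0.118 in batch 1. The log2 ratio of SDs turned to 0.04 (Myf6, quantile normalization) and -0.02 (Igf1, without BXD63). Where no cause is named, the cause was not tested. The other probesets of a member could not be tried, since each has 1.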

Other observations

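The parental strains also differed from the BXD strains at single members. On CD all 40 BXD strains scored below both parents for Myod1, at most 10.054 (BXD69) against 10.086 in DBA/2J and 10.405 in C57BL/6J. On HFD 27 of 35 did. For Myog on HFD the parents stood near opposite ends, at 7.018 in C57BL/6J and 7.841 in DBA/2J, and 1 of 35 BXD strains lay outside them. On CD the order was the reverse, at 7.874 in C57BL/6J and 7.397 in DBA/2J, and 12 of 40 BXD strains lay outside them. These positions rest on 1 pool per parent and diet and were not tested.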
